A study of Homo sapiens with 4 samples.

Results

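Major histocompatibility complex (MHC) class I presentation is followed here through 9 genes, HLA-B, HLA-C, HLA-E, HLA-F, B2M, TAP1, TAP2, NLRC5 and PSMB10. They were taken from the table of processed values by symbol, and all 9 were found among 59533 genes. RNA sequencing gave 4 libraries, 1 for each group. The groups were HCC1937 cells given decitabine (DAC) at 0.3 µM for 5 days, untreated HCC1937 cells, THP-1 cells given DAC at 5 µM for 2 days, and untreated THP-1 cells, with no culture time stated for the untreated ones. HCC1937 cells derive from a breast carcinoma, and THP-1 cells from a monocytic leukaemia. Both are labelled p53-/-, and all 4 groups, the untreated ones included, were infected with the mutant p53-R282W, so nothing below separates the effect of that mutant from the rest. DAC is a deoxycytidine analogue that inhibits DNA methyltransferases.

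Class I molecules show peptides from inside a cell to CD8 T cells, and also serve as ligands of inhibitory receptors on natural killer cells. A polymorphic heavy chain pairs with the light chain beta-2-microglobulin. Proteasomes cut proteins to peptides, the TAP transporter carries these into the endoplasmic reticulum, and the loaded complex moves to the cell surface. NLRC5 is the transactivator that binds, through a set of DNA-bound partners, to conserved boxes in promoters of class I genes. Loss of the class I pathway by mutation or promoter methylation is well known in tumours.

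Levels are given in FPKM, a measure of fragments per length of transcript and per depth of sequencing. The deposited table names no unit, and FPKM is an assumption from the spacing of its values. If that assumption holds, the depth read from this spacing was 18.7 M counted reads in each HCC1937 library. It was 19.6 M in the DAC library and 19.5 M in the untreated library of THP-1. All 12 listed breast epithelial markers reached 1 FPKM in both HCC1937 libraries, against 3 in the DAC library and 2 in the untreated library of THP-1. All 12 myeloid markers reached it in both THP-1 libraries, against 4 in the DAC library and 2 in the untreated library of HCC1937. Lymphoid genes, markers of other cells rich in class I RNA, summed over 9 genes to 3.45 FPKM with DAC and 0.54 FPKM untreated in HCC1937. They summed to 39.6 and 33.3 FPKM in the DAC and untreated libraries of THP-1. Of these 9 genes, 1 with DAC and 0 untreated reached 1 FPKM in HCC1937, and 2 in each THP-1 library. Of 4 endothelial genes, 3 with DAC and 1 untreated reached it in HCC1937, and 1 in each THP-1 library. Of 5 fibroblast genes, 1 reached it in each HCC1937 library, and 1 with DAC and 0 untreated in THP-1. The part of such genes in the results was not tested. Since each group is a single library, replicate error cannot be measured and the comparisons within a line carry no p. The 95% intervals beside ratios (exact, Clopper-Pearson) cover counting error only, and PCR reads are not independent molecules.

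Of the 9 genes, 0 were at least 2-fold higher and 1, PSMB10, was at least 2-fold lower in the DAC library of HCC1937, on log2(FPKM + 1). Over 14058 genes kept in this line (at least 1 FPKM in at least 1 of its libraries), 10.3% were higher and 1.44% lower by the same rule, 11.8% in all. In THP-1 HLA-F was below 1 FPKM in both libraries, and of the other 8 genes 0 were past 2-fold in either direction, where 1.14% of 12075 kept genes were higher and 0.364% lower, 1.51% in all. The median log2 difference, DAC minus untreated, was 0.18 over the 9 genes in HCC1937, against 0.19 over all kept genes. In THP-1 it was 0.18 over 8 genes, against 0.071 over all kept genes. In bulk RNA, fewer cells of a type and less RNA per cell cannot be told apart. Among the 8 genes kept in both lines NLRC5 had the highest log2 difference in each line, and it was below 2-fold.

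**Figure D1:**
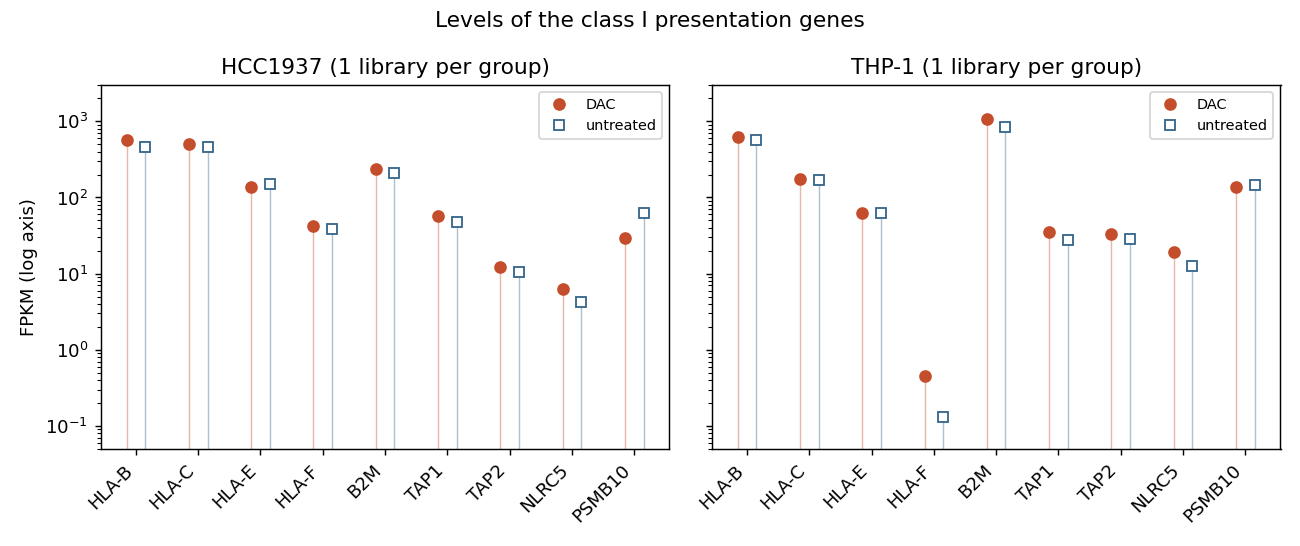
FPKM of the 9 genes (log axis) in the DAC library (filled circles) and the untreated library (open squares) of HCC1937 (left) and THP-1 (right), 1 library per group. The pairs lie close together, except PSMB10 in HCC1937 at 29.5 with DAC and 62.6 untreated, and HLA-F in THP-1, which is below 1 FPKM in both libraries.

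NLRC5 (ENSG00000140853.15, chromosome 16, 56989485 to 57083531 on hg38, GENCODE 29), the transactivator, was among the lowest of the 9 genes in level. It stood at 6.34 FPKM in DAC-treated HCC1937 and 4.27 FPKM in untreated HCC1937, and at 19.2 FPKM in DAC-treated THP-1 and 12.6 FPKM in untreated THP-1. The DAC library was the higher one in both lines, by a ratio of 1.49 (interval 1.37 to 1.61) in HCC1937 and 1.52 (1.43 to 1.62) in THP-1. On the log2 scale the differences were 0.48 and 0.57, and a larger difference was met by 27.7% of kept genes in HCC1937 and by 3.59% in THP-1. The gain was thus of a common size among HCC1937 genes and near the upper end in THP-1.

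Of 17 listed regulators, the partners of NLRC5 at class I promoters and the factors that induce it, 0 were past 2-fold in either line. Over all kept genes 11.8% were past it in HCC1937 and 1.51% in THP-1. The median log2 difference of the list was -0.0093 in HCC1937 and 0.064 in THP-1, against 0.19 and 0.071 over all kept genes. IRF1, an interferon-induced activator of class I genes, was lower with DAC in HCC1937, at 10.7 FPKM against 19.7 FPKM untreated, and stood at 8.35 FPKM with DAC and 7.25 FPKM untreated in THP-1. Its log2 difference was -0.82 in HCC1937 and 0.18 in THP-1.

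The cores of boxes on which such regulators act can be searched for in the sequence upstream of the genes. RefSeq promoter windows (GRCh38.p14) were found for 7 of the 9 genes, without HLA-E and NLRC5. HLA-G had 3 windows and TAP1 had 2, and the one nearest an annotated start codon was used. Motif and CpG counts are for that window only. The following 250 bases before the start site are shown because they let the heavy chain genes be compared with B2M, TAP1 and PSMB10, and with HLA-G, a non-classical heavy chain gene that is described after HLA-F. They are reference sequence, not that of the cell lines. Capitals mark 5 motifs, searched on both strands and allowed to overlap, namely CCAAT (the Y box core), TGACG (the CRE core), GAAA with any pair of bases and then GAAA (the interferon-stimulated response element core), TTC with a 3-base gap and then GAA (the GAS site), and the kappa B site of class I genes, which is the run of capitals that opens with GGGG in HLA-B.
HLA-B, chr6:31357180-31357429, minus strand: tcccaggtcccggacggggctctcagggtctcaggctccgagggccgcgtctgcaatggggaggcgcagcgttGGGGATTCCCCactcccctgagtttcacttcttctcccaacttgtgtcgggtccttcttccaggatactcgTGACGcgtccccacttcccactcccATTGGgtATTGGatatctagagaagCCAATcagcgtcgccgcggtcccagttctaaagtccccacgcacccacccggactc
HLA-F, chr6:29723184-29723433, plus strand: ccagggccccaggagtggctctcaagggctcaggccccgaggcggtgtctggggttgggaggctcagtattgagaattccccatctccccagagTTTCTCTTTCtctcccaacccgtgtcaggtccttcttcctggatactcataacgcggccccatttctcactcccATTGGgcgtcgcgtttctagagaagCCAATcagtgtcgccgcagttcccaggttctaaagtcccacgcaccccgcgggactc
HLA-G, chr6:29827575-29827824, plus strand: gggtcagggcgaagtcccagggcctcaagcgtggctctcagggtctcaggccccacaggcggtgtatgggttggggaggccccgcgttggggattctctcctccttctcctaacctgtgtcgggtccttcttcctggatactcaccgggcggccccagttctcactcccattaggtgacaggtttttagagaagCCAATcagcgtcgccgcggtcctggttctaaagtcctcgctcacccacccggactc
B2M, chr15:44711267-44711516, plus strand: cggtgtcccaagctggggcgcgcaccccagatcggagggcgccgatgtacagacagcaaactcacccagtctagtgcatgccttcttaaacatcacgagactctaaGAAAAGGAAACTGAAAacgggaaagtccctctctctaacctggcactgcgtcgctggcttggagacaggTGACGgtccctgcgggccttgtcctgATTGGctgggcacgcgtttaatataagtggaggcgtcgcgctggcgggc
TAP1, chr6:32853705-32853954, minus strand: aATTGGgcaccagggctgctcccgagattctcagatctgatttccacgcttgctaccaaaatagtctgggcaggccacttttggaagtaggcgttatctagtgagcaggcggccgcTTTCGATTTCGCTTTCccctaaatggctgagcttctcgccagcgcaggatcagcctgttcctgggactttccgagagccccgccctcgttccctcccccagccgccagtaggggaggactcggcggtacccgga
PSMB10, chr16:67936851-67937100, minus strand: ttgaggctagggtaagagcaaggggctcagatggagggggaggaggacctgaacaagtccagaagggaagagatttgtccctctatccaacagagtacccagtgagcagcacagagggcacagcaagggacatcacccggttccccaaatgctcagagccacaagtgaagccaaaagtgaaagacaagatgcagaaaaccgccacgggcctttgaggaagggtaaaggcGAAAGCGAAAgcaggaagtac

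HLA-B held 3 CCAAT matches, 1 TGACG match and the kappa B site. HLA-F held 2 CCAAT matches, no TGACG match and 1 response element core, and HLA-G held 1 CCAAT match and none of the other 4 motifs. B2M held 1 CCAAT, 1 TGACG and 2 overlapping response element cores, TAP1 held 1 CCAAT and 2 overlapping cores, and PSMB10 held 1 core and none of the other motifs. Of the windows not printed, that of HLA-C held 4 CCAAT matches and 1 TGACG match, without the kappa B site. That of TAP2 held 1 TGACG match and 1 core, without CCAAT. Over 35116 windows of this length, CCAAT was found in 32.0%, TGACG in 21.2%, the response element core in 3.02%, the GAS site in 6.57% and the kappa B site in 0.0313%. CpG dinucleotides, the sites that DNA methyltransferases modify, numbered 17 in HLA-B, 13 in HLA-F, 14 in HLA-G, 18 in B2M, 16 in TAP1 and 5 in PSMB10, against a median of 11 over all windows. Methylation was not measured, and these matches describe the letters only.

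HLA-B, HLA-C and HLA-E differed by less than 2-fold between DAC and untreated cells in both lines, and HLA-F did so in HCC1937. HLA-B (ENSG00000234745.10, chromosome 6, 31269491 to 31357188), a polymorphic chain recognised by T cells, stood at 566 FPKM with DAC and 459.5 FPKM untreated in HCC1937, and at 628 FPKM with DAC and 570.4 FPKM untreated in THP-1. The ratios were 1.23 (1.21 to 1.25) and 1.1 (1.08 to 1.12). HLA-C (ENSG00000204525.16, chromosome 6, 31268749 to 31272130), which also binds killer cell receptors, stood at 509 FPKM with DAC and 459 FPKM untreated in HCC1937, and at 177 FPKM with DAC and 169 FPKM untreated in THP-1. DAC libraries were higher for both genes in both lines as deposited. HLA-B stayed above 0 under the other scalings in both lines. Under median-of-ratios scaling the log2 difference of HLA-C was -0.065 in HCC1937 and -0.0066 in THP-1.

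HLA-E (ENSG00000204592.8, chromosome 6, 30489467 to 30494205), which shows signal peptides of other class I chains to the NKG2A receptor, was the heavy chain that was not higher with DAC. It stood at 139 FPKM with DAC and 150.4 FPKM untreated in HCC1937, a ratio of 0.922 (0.894 to 0.952). In THP-1 it stood at 62.5 FPKM with DAC and 63.0 FPKM untreated, where the interval of the ratio (0.944 to 1.04) held 1. HLA-F (ENSG00000204642.13, chromosome 6, 29722775 to 29738528), a non-classical chain, separated the lines more than any other of the 9 genes. It stood at 42.6 FPKM with DAC and 38.5 FPKM untreated in HCC1937, against 0.45 FPKM with DAC and 0.13 FPKM untreated in THP-1. The THP-1 values stand for about 16 and 4 reads, and their ratio of 3.46 has an interval of 1.28 to 16.3.

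HLA-G, a non-classical chain of the placenta outside the 9 genes, was the gene of the pathway lists with by far the largest difference. It stood at 28.1 FPKM with DAC and 0.12 FPKM untreated in HCC1937, about 927 and 4 reads, a ratio of 234 (90.1 to 851). Only 0.114% of kept genes had a larger log2 difference than its 4.70. In THP-1 it stood at 0.26 FPKM with DAC and 0.07 FPKM untreated, about 8 and 2 reads, a ratio of 3.71 with an interval of 0.791 to 38.3. Class I heavy chain genes are close copies of each other and differ between people, so the split of reads among them is uncertain, and the part of such reads in the HLA-G value was not tested. HLA-G was the 1 gene past 2-fold of 8 kept members of the list of class I-like molecules and NKG2D ligands in HCC1937. In THP-1, 0 of 8 were past it. The shares over all kept genes were 11.8% in HCC1937 and 1.51% in THP-1.

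B2M (ENSG00000166710.18, chromosome 15, 44711487 to 44718877), the light chain shared by the heavy chains above, stood at 234 FPKM with DAC and 207 FPKM untreated in HCC1937, and at 1074 FPKM with DAC and 854 FPKM untreated in THP-1. The ratios were 1.13 (1.11 to 1.15) and 1.26 (1.23 to 1.29). The summed FPKM of HLA-B, HLA-C, HLA-E and HLA-F divided by that of B2M, a value that scaling between libraries cannot move, was 5.36 in both the DAC and the untreated library of HCC1937. In THP-1 it was 0.808 with DAC and 0.940 untreated, so B2M was higher there by more than the chains were. Whether another culture would give this ratio cannot be read from 1 library.

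TAP1 (ENSG00000168394.11, chromosome 6, 32845209 to 32853978) and TAP2 (ENSG00000204267.13, chromosome 6, 32821833 to 32838780) encode the paired chains of the peptide transporter. TAP1 stood at 57.9 FPKM with DAC and 48.0 FPKM untreated in HCC1937, and at 35.3 FPKM with DAC and 27.8 FPKM untreated in THP-1. TAP2 stood at 12.1 FPKM with DAC and 10.6 FPKM untreated in HCC1937, and at 33.3 FPKM with DAC and 28.5 FPKM untreated in THP-1. Both chains were thus higher in the DAC library of each line as deposited, with ratios of 1.21 (1.16 to 1.26) and 1.14 (1.06 to 1.23) in HCC1937 and of 1.27 (1.19 to 1.36) and 1.17 (1.12 to 1.22) in THP-1. Under median-of-ratios scaling the log2 difference of TAP2 in HCC1937 was -0.020. The FPKM of TAP1 over that of TAP2 was 4.78 with DAC and 4.53 untreated in HCC1937, against 1.06 and 0.975 in the DAC and untreated libraries of THP-1.

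The genes that load and trim peptides beside TAP had 0 of 7 past 2-fold in HCC1937 and 0 of 6 in THP-1, with median log2 differences of -0.10 and 0.16. Over all kept genes 11.8% were past it in HCC1937 and 1.51% in THP-1, with medians of 0.19 and 0.071. CALR, the chaperone calreticulin of the loading complex, stood at 540.1 FPKM with DAC and 999 FPKM untreated in HCC1937, and at 945 FPKM with DAC and 815 FPKM untreated in THP-1. CANX, the chaperone calnexin that holds the newly made heavy chain, stood at 306 FPKM with DAC and 193 FPKM untreated in HCC1937, and at 241 FPKM with DAC and 246 FPKM untreated in THP-1. These chaperones of one folding cycle lay on opposite sides in HCC1937, with log2 differences of -0.89 for CALR and 0.66 for CANX.

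PSMB10 (ENSG00000205220.11, chromosome 16, 67934502 to 67937087), the trypsin-like subunit of the immunoproteasome, was the 1 gene of the 9 past 2-fold. It stood at 29.5 FPKM with DAC and 62.6 FPKM untreated in HCC1937, about 1022 and 2168 reads, a ratio of 0.471 (0.437 to 0.508). Only 1.22% of kept genes had a lower log2 difference than its -1.06. In THP-1 it stood at 136 FPKM with DAC and 145 FPKM untreated, a ratio of 0.934 (0.890 to 0.980). The DAC library was the lower one in both lines, by little in THP-1. In HCC1937 the difference stayed past 2-fold under both other scalings, at -1.27 and -1.23, and was -0.88 with a pseudocount of 10.

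Of the other inducible subunits, PSMB8 was higher and PSMB9 slightly lower with DAC in HCC1937 as deposited, and both were higher in THP-1. PSMB8, the chymotrypsin-like subunit, stood at 36.8 FPKM with DAC and 32.1 FPKM untreated in HCC1937, and at 143 FPKM with DAC and 131 FPKM untreated in THP-1. PSMB9, encoded beside TAP1, stood at 23.2 FPKM with DAC and 26.2 FPKM untreated in HCC1937, and at 86.4 FPKM with DAC and 66.6 FPKM untreated in THP-1. Of 4 listed immunoproteasome and PA28 genes, 0 were past 2-fold in either line. Of 15 genes of the standard proteasome and PSME3, 0 were past it as well, beside 11.8% of all kept genes in HCC1937 and 1.51% in THP-1. The standard list lay slightly lower with DAC in HCC1937, with 13 of 15 below 0 at a median log2 difference of -0.12. Over all kept genes of HCC1937 66.2% were above 0, at a median of 0.19. PSMB6 had the largest difference of the list, at 82.3 FPKM with DAC and 129 FPKM untreated. In THP-1 the median of the list was 0.040, against 0.071 over all kept genes. PSMA3, a structural alpha subunit, stood there at 99.8 FPKM with DAC and 83.2 FPKM untreated.

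Each inducible subunit takes the place of a standard one, PSMB10 that of PSMB7, PSMB9 that of PSMB6 and PSMB8 that of PSMB5. In HCC1937 the FPKM of PSMB10 was 0.242 of that of PSMB7 with DAC and 0.443 of it untreated. The ratio of PSMB9 to PSMB6 was 0.282 with DAC and 0.204 untreated, and that of PSMB8 to PSMB5 was 0.310 with DAC and 0.257 untreated. PSMB10 was the subunit whose ratio was lower with DAC in HCC1937, while the other ratios were higher. PSMB9 itself was lower there, at 23.2 FPKM with DAC and 26.2 FPKM untreated. Its ratio was higher because PSMB6 was lower by more, at 82.3 FPKM with DAC and 129 FPKM untreated. In THP-1 the ratios were 1.30 with DAC and 1.48 untreated for PSMB10, 0.705 and 0.534 for PSMB9 in the DAC and untreated libraries, and 4.14 and 4.31 for PSMB8.

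**Figure D2:**
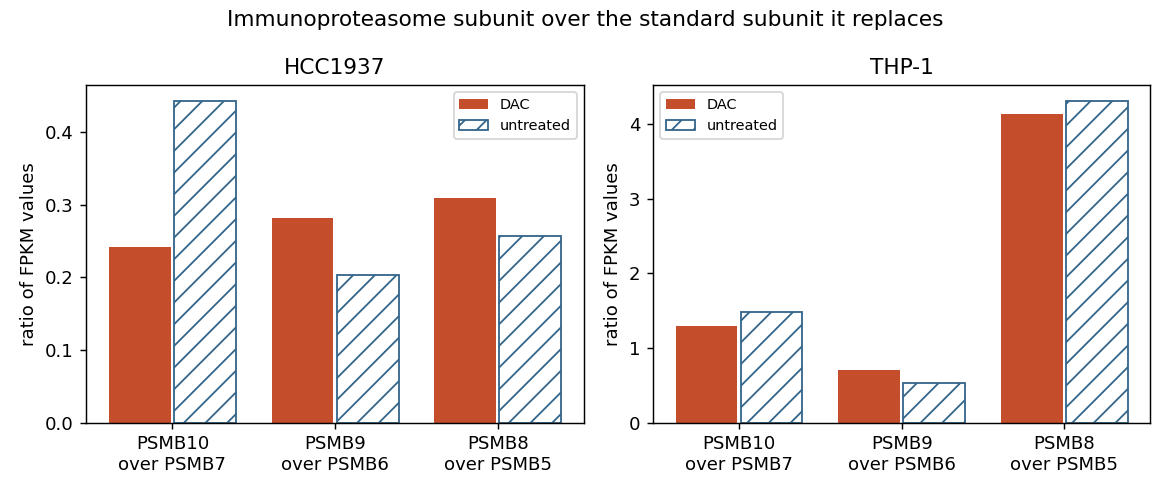
FPKM of each inducible proteasome subunit divided by that of the standard subunit it replaces, in the DAC (filled) and untreated (hatched) library of HCC1937 (left) and THP-1 (right), with 1 library per group and axes of different length. In HCC1937 the PSMB10 bar is lower with DAC (0.242 against 0.443 untreated) and the PSMB9 and PSMB8 bars are higher, though PSMB9 itself was slightly lower.

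As deposited, 7 of the 9 genes were above 0 in HCC1937 and 6 of 8 in THP-1, where 66.2% and 65.0% of all kept genes were. The median of all kept HCC1937 genes was 0.19 on the log2 scale as deposited, 0.015 under median-of-ratios scaling and 0.051 under upper-quartile scaling, and the small gains have to be read against that shift. Under these scalings 3 and 5 of the 9 genes were above 0 in HCC1937, and 5 and 6 of the 8 in THP-1. HLA-B, TAP1 and NLRC5 were above 0 under all 3 scalings in both lines, while HLA-C, HLA-F, B2M and TAP2 changed sign in HCC1937 under at least 1 of them. HLA-E and PSMB10 were below 0 under all 3 in both lines.

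**Figure D3:**
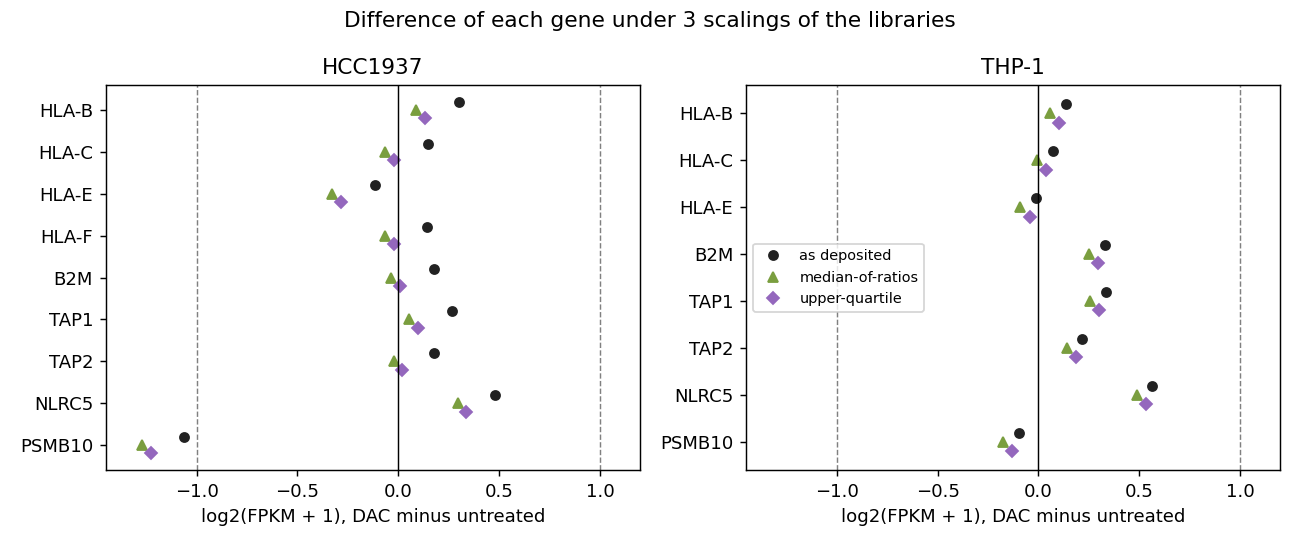
Log2(FPKM + 1) of DAC minus untreated for each gene in HCC1937 (left) and THP-1 (right), with the values as deposited (circles), after median-of-ratios scaling (triangles) and after upper-quartile scaling (diamonds); dashed lines mark 2-fold, and HLA-F is left out in THP-1. PSMB10 in HCC1937 lies beyond 2-fold under all 3 scalings, and most other genes lie near 0.

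A difference common to both lines was tested with limma on 9798 genes kept in both, with line as a block. The fit has 1 residual degree of freedom, which measures how far the lines differ in response, and dose and time differed between the lines as well. Of the 8 genes tested, 0 passed a Benjamini-Hochberg adjusted p of 0.05, and of all 9798 genes 0 passed (0.0%). At an unadjusted limma p of 0.05, 1 of the 8 passed, NLRC5, and 625 of all genes did (6.38%). NLRC5 had a log2 difference of 0.52 ± 0.16 (SE), higher with DAC in each line, with a limma adjusted p = 0.642 (0.591 to 1.0 over the alternatives). It no longer passed unadjusted with median-of-ratios scaling or without the block. PSMB10 had -0.58 ± 0.26 (SE), lower in each line, with a limma adjusted p = 0.642. It passed unadjusted with median-of-ratios scaling and with a filter of 5 FPKM. For the other 6 genes the limma log2 difference ran from -0.063 for HLA-E to 0.30 for TAP1, with adjusted p from 0.642 to 0.887.

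**Figure D4:**
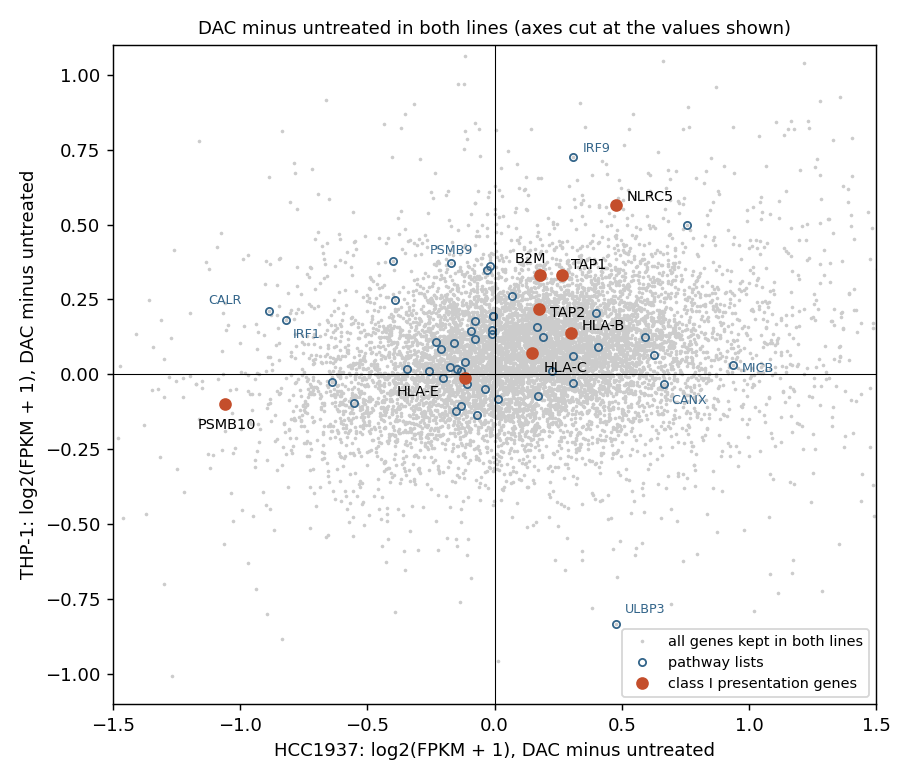
Log2(FPKM + 1), DAC minus untreated, in HCC1937 (x axis) and THP-1 (y axis) for 9798 genes kept in both lines (grey points; 204 lie outside the axes), the pathway lists (open circles, some named) and the 8 class I presentation genes kept in both lines (filled circles). NLRC5 lies at 0.48 and 0.57, PSMB10 at -1.06 and -0.10, and the others among the grey points. B2M and TAP1 lie toward the top of these, both at 0.33 in THP-1. There 10.4% and 10.2% of the genes kept in that line had a larger difference.

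Within HCC1937, HLA-B and HLA-C had the highest deposited FPKM of the 9 genes, then B2M, HLA-E, TAP1, HLA-F, PSMB10, TAP2 and NLRC5 with DAC, and in the untreated library PSMB10 stood above TAP1. HLA-B and HLA-C were next to each other at 459.5 and 459 FPKM in untreated HCC1937. In THP-1 B2M was highest, then HLA-B, HLA-C, PSMB10 and HLA-E, and HLA-F was lowest. TAP1 and TAP2 were next to each other in THP-1, at 35.3 and 33.3 FPKM with DAC and 27.8 and 28.5 FPKM untreated. No spread over replicates can be set against these orders, and they depend on the gene lengths used for each line, for B2M above all, as given next.

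The gene lengths behind the values differ between the lines and limit what can be read across them. Estimated reads of low genes with 300 to 1000 exon bases fell on whole numbers (within 0.1) in 70.4% and 73.1% of genes for the DAC and untreated HCC1937 libraries, when all GENCODE 29 exons were counted, and in 56.3% and 56.7% for those of THP-1 when only exons of transcripts with a RefSeq match were. With the lengths exchanged these shares were 16.5% and 14.1% in HCC1937 and 19.4% and 22.7% in THP-1. For B2M the first length, 6079 bases, is 6.45 times the second, 943 bases, against 1.97 times for HLA-B, so the place of B2M below HLA-B and HLA-C in HCC1937 rests on the first length. Its log2 level in untreated HCC1937 minus untreated THP-1 was -2.05 as FPKM and 0.64 as reads per library depth (RPM, estimated from FPKM), and that of HLA-B was -0.31 and 0.67. For the other 7 genes both scales gave the same sign, with HLA-C, HLA-E, HLA-F and TAP1 higher in untreated HCC1937, and TAP2, NLRC5 and PSMB10 higher in untreated THP-1.

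**Figure D5:**
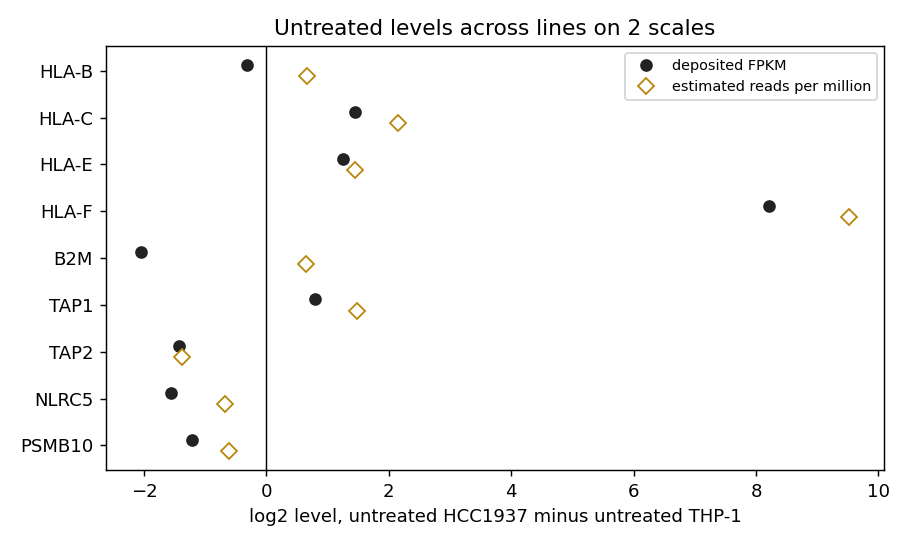
Log2 level of each gene in untreated HCC1937 minus untreated THP-1, as deposited FPKM (circles) and as estimated RPM (diamonds), 1 library per line. B2M and HLA-B lie left of 0 as FPKM and right of 0 as RPM, and HLA-F lies farthest to the right on both scales.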

How the data were processed

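The members and lists were chosen with earlier results of these data known. Libraries were made from purified mRNA with a TruSeq kit, per the labels' protocols, and the submitters' processing notes name hg38 with HTSeq, STAR, cutadapt and FastQC. Versions, annotation and use of strand in counting are not given in the sources used here. No unit is named in the deposited table. The deposited values were read as FPKM made by the authors. Value times exon length falls on whole multiples of 1 step (within 0.1 reads) in 92.3% to 95.2% of genes of 50 to 250 exon bases. The step was fitted on these same genes. Any scaling of counts by length would give such multiples, so they cannot single out FPKM. The depths and the RPM values rest on that assumption. In 37039 of 60612 lines the THP-1 columns are empty of values.

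Lines of 76 repeated symbols were left out, which left 59533 genes, 23440 with THP-1 values. The design allowed for counts or normalised values, and the size rule for normalised values was used (1 FPKM filter, pseudocount 1, 2-fold). Reads per gene were estimated from FPKM, depth and GENCODE 29 exon length, and give the counting intervals. All genes were fitted with limma 3.58.1 (R 4.3.3, intensity trend). Tables and intervals were made in Python 3.11.15 with scipy 1.17.1, numpy 2.4.6 and pandas 2.3.3, and figures in matplotlib 3.10.9. Named genes were the 9 members and, per list, those past 2-fold or otherwise the 2 with the largest difference; PSMB8, the standard partners of the inducible subunits and their ratios were chosen after their values were seen. A further gene that this rule names is not reported here. Alternatives were other scalings, filters, pseudocounts, sizes of change and limma settings. The scripts were tested on simulated data. Protein comparison was not done, since no protein table was used here. Positions are on hg38 from GENCODE 29. In that annotation TAP2 and PSMB10 share exon bases with read-through genes, and HLA-B with HLA-C. HLA-B, HLA-F, TAP1 and HLA-G share them with genes on the opposite strand. For HLA-G these are 455 of 1763 exon bases, shared with the pseudogene HCG4P8. Reads from all such shared bases are uncertain.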

Additional observations from a re-analysis of the deposited data

Results flagged for a closer look

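For 5 of the genes named by the rule above, the DAC library was higher in one line and lower in the other. The difference between the lines was not tested. CALR had a log2 difference of -0.89 in HCC1937 and 0.21 in THP-1, and IRF1 had -0.82 in HCC1937 and 0.18 in THP-1. PSMB9 had -0.17 in HCC1937 and 0.37 in THP-1. CANX had 0.66 in HCC1937 and -0.03 in THP-1, and PSME1, a subunit of the PA28 proteasome activator, had -0.34 in HCC1937 and 0.02 in THP-1, so that both lay near 0 in THP-1. Genes named after their values were seen also had opposite signs. MICA had -0.40 in HCC1937 and 0.38 in THP-1, and ULBP3 had 0.48 in HCC1937 and -0.83 in THP-1. PSMB7 had -0.21 in HCC1937 and 0.084 in THP-1, and PSMB5 had -0.075 in HCC1937 and 0.18 in THP-1. None of the 8 class I presentation genes kept in both lines had opposite signs as deposited. Groups of 1 library cannot be searched for samples that stand apart.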

How the results depend on the processing

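The count of members at least 2-fold lower in HCC1937 (1, PSMB10) was 0 with a pseudocount of 10, which lowers every difference by construction, and 1 under the other alternatives; 0 members were higher under any alternative, and 0 were past 2-fold in THP-1. The median log2 difference of the members in HCC1937 was -0.034 after median-of-ratios and 0.011 after upper-quartile scaling, and in THP-1 it was 0.099 after median-of-ratios scaling. Signs turned in HCC1937 for HLA-C (-0.065 with median-of-ratios, -0.021 with upper-quartile scaling), HLA-F (-0.066 and -0.023), B2M (-0.034, median-of-ratios) and TAP2 (-0.020, median-of-ratios), and in THP-1 for HLA-C (-0.0066, median-of-ratios). Across the untreated lines, HLA-B (0.67) and B2M (0.64) turned sign as RPM, a scale chosen after seeing the data. Pathway list genes past 2-fold lower in HCC1937 (0) numbered 2 under median-of-ratios scaling, 1 under upper-quartile scaling, 1 with a pseudocount of 0.1 and 4 at 1.5-fold, and those higher (1) numbered 2 with a pseudocount of 0.1 and 6 at 1.5-fold. In THP-1 (0 and 0) 1 was lower with a pseudocount of 0.1, and at 1.5-fold 1 was higher and 1 lower.

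In HCC1937 all kept genes held 1455 higher and 202 lower. These counts were 1158 and 360 with median-of-ratios scaling, and 1205 and 317 with upper-quartile scaling, so that higher genes made up 87.8%, 76.3% and 79.2% of those past 2-fold. They numbered 2326 and 383 with a pseudocount of 0.1, 131 and 31 with 10, 550 and 108 with a filter of 5 FPKM, and 3080 and 831 at 1.5-fold. In THP-1, 138 higher and 44 lower became 297 and 74, 3 and 0, 42 and 4, and 397 and 120 in the same settings. Limma called 0 members under all 9 alternatives, and 2 of all genes at an adjusted p of 0.1 or with a filter of 5 FPKM. No paired analysis by replicate number was possible because the labels give none, and limma paired the libraries by line. Without line as a block, limma left 0 members at an unadjusted p of 0.05, which NLRC5 also missed with median-of-ratios scaling. The cause was not tested where none is named. At this depth HLA-F in THP-1 and HLA-G in 3 of 4 libraries rest on 16 reads or fewer.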

Other observations

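Several ligands of NKG2D, an activating receptor of natural killer cells, were measured. MICB, 1 of them, stood at 17.3 FPKM with DAC and 8.56 FPKM untreated in HCC1937, just below 2-fold on log2(FPKM + 1) at 0.94, and at 7.65 FPKM with DAC and 7.46 FPKM untreated in THP-1. MICA, another of these ligands, was lower with DAC in HCC1937, at 15.4 FPKM against 20.6 FPKM untreated. In THP-1 MICA stood at 5.80 FPKM with DAC and 4.23 FPKM untreated. ULBP2 stood at 21.5 FPKM with DAC and 13.9 FPKM untreated in HCC1937, and at 3.32 FPKM with DAC and 2.96 FPKM untreated in THP-1. ULBP1 stood at 2.27 FPKM with DAC and 1.73 FPKM untreated in THP-1, and was below 1 FPKM in both libraries of HCC1937. ULBP3 in THP-1 stood at 0.90 FPKM with DAC and 2.38 FPKM untreated, on about 17 and 46 reads. In HCC1937 ULBP3 was the other way, at 1.56 FPKM with DAC and 0.84 FPKM untreated, on about 29 and 16 reads. HFE, a class I-like regulator of iron uptake, stood at 1.66 FPKM with DAC and 3.64 FPKM untreated in HCC1937. IRF9, the DNA-binding part of the factor that answers type I interferon, stood at 13.2 FPKM with DAC and 7.62 FPKM untreated in THP-1, and at 5.01 FPKM with DAC and 3.85 FPKM untreated in HCC1937. These genes were chosen after their values were seen.

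Among 5693 genes whose higher library reached 5 FPKM in each line, the 5 whose pair of log2 differences lay nearest to that of NLRC5 were HMCES, MICALL2, SERTAD1, EIF2AK2 and FUCA1, at distances of 0.024 to 0.079 over 2 differences from 4 libraries. EIF2AK2, the kinase PKR that binds double-stranded RNA, stood at 7.02 FPKM with DAC and 4.48 FPKM untreated in HCC1937, and at 7.46 FPKM with DAC and 4.60 FPKM untreated in THP-1. HMCES, a protein that binds abasic sites in single-stranded DNA, stood at 53.9 FPKM with DAC and 38.3 FPKM untreated in HCC1937, and at 14.1 FPKM with DAC and 9.03 FPKM untreated in THP-1.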
